A study of Mus musculus with 6 samples.

Results

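The genes described here encode the subunits of integrins and laminins. They were taken by gene symbol alone, as every α and β integrin subunit and every α, β and γ laminin subunit, which gave 37 of the 29616 genes in the table, 26 integrin and 11 laminin genes. RNA was sequenced from bone cells of C57BL/6 mice in 3 control libraries and 3 libraries from dexamethasone-treated mice. Per the study's methods, the treated mice were given dexamethasone (a glucocorticoid drug) each day from the age of 8 weeks, over 4 weeks, at a dose of 0.08 µg per g, and the cells were Osteocalcin-positive cells sorted from bones without marrow. The labels give no genotype other than the strain, and neither the labels nor the methods say how many mice made up a library, so the p-values measure the spread between these libraries. The libraries held between 72596611 and 89910728 reads. Osteoblast genes were present in all libraries. However, 7 of the 8 osteoblast markers listed were at least 2-fold lower with dexamethasone (limma adjusted p under 0.05), as were 10.6% of all genes tested. Among the 7 was Osteocalcin itself (Bglap), at 107 normalized counts in the control and 12.2 in the dexamethasone libraries. Spp1 (osteopontin), an osteogenic marker in the study but placed here with the integrin ligands, went the other way (log2 fold change 5.25). So did Dmp1, a gene of osteocytes that was also placed with the ligands (log2 fold change 7.16). The study itself reported lower Osteopontin with dexamethasone, in osteoblast-lineage cells sorted by another label (tdTomato) than the cells sequenced here.

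Integrins are receptors that hold a cell to the matrix around it. Each is a pair of an α and a β chain, and the pair decides the ligand: some bind collagens, some laminins, some the RGD sequence of fibronectin, vitronectin and osteopontin, and some serve cell to cell contact of leukocytes. Inside the cell the β tail is linked to actin through talin, kindlin, vinculin and paxillin. Laminins are secreted trimers of an α, a β and a γ chain and form the sheet of basement membranes. In bone, osteoblasts lie on type I collagen and use integrins to sense it.

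Of the 37 genes, 32 reached a mean of 10 or more normalized counts (reads divided by a size factor per library) and were tested, 1 of them, Lama3, only through its level in the dexamethasone libraries. A gene is said to have risen or fallen when its limma p-value, adjusted over all 17442 genes tested, was under 0.05, and to be differentially expressed when its log2 fold change was also at least 1 in either direction. Differential expression was found for 18 of the 37 genes, 12 higher and 6 lower with dexamethasone, against 22.3% of all genes tested (11.7% higher, 10.6% lower). A further 4 rose and 4 fell by less than 2-fold, so that 26 genes passed the adjusted p-value, which 72.5% of all genes tested did. The values of both groups did not overlap for 28 of the 37, and for 27 of the 32 tested, where 74.7% of all genes tested did not overlap. Among the 15 subunits whose mean reached 1000 normalized counts, 8 were differentially expressed, where 15.5% of all genes tested at that level were. The median log2 fold change was 0.38 over the 32 tested subunits and 0.0007 over all genes tested. As the RNA came from many cells at once, fewer cells of a type and less RNA per cell cannot be told apart in any of these values.

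**Figure D1:**
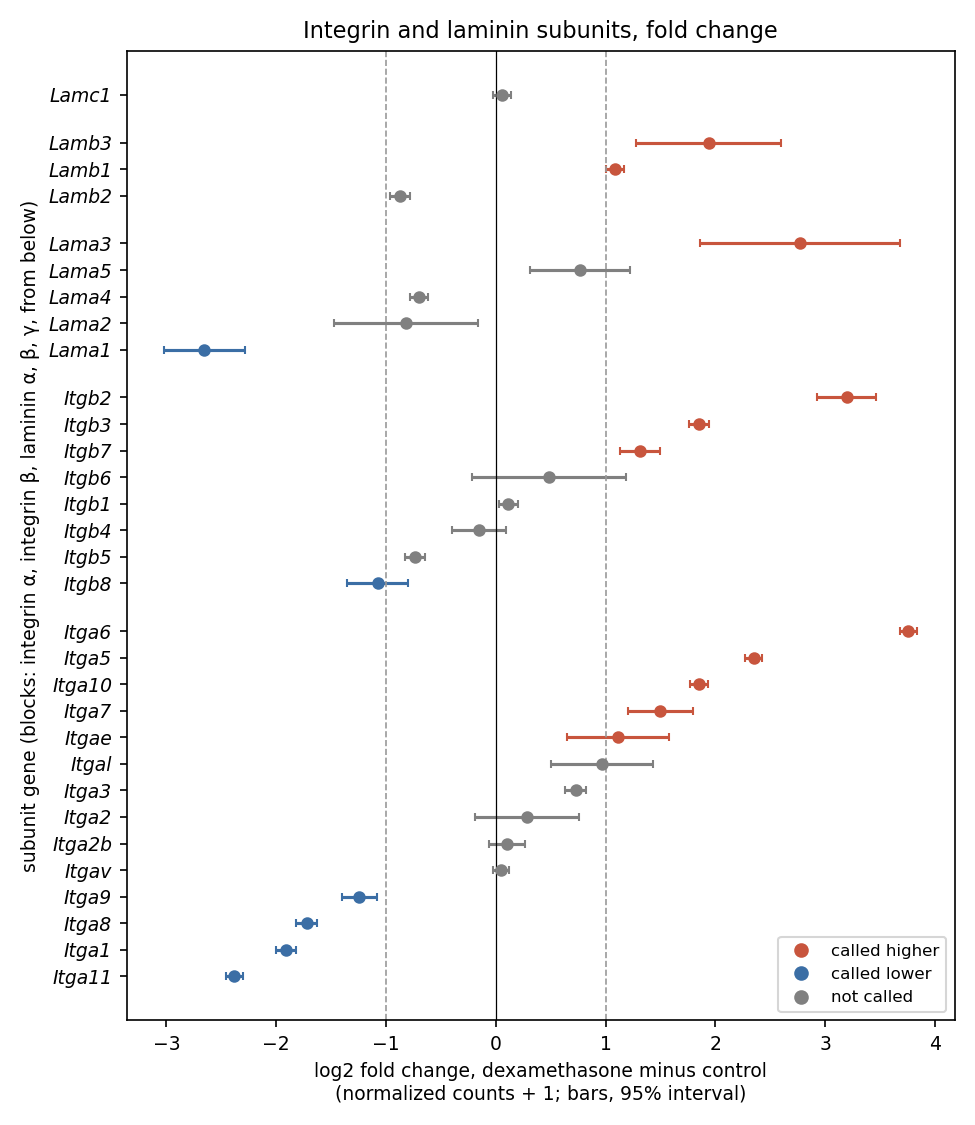
Log2 fold change (dexamethasone minus control, normalized counts plus 1) of 31 of the tested subunit genes, with 95% intervals from limma, in blocks for integrin α, integrin β, laminin α, laminin β and laminin γ. Dashed lines mark a log2 fold change of 1 in either direction, and 11 of the genes drawn lie past it as higher and 6 as lower, from Itga6 at 3.76 to Lama1 at -2.65.

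Of the 4 collagen-binding α chains, 2 fell, 1 rose and 1 did not pass the test. Itga11, the receptor chain for fibrillar collagens on mesenchymal cells, had 16776, 18026 and 17495 normalized counts in the control libraries and 3406, 3413 and 3203 in the dexamethasone libraries. It was 5.22-fold lower (log2 fold change -2.38, standard error 0.038, limma adjusted p = 2.33e-25). Every control library was above every dexamethasone library by a wide margin. Itga1, which binds type IV and type I collagen, fell in the same way. Its normalized counts were 3771, 3960 and 4016 in the control and 1049, 1044 and 1021 in the dexamethasone libraries (log2 fold change -1.91, limma adjusted p = 3.25e-22). Itga10, best known as the type II collagen receptor chain of chondrocytes, went the other way. It had 2004, 2057 and 2142 normalized counts in the control libraries and 7856, 7308 and 7222 with dexamethasone, a 3.61-fold rise (log2 fold change 1.85, limma adjusted p = 1.84e-22). In the GENCODE M21 annotation 33.5% of the exon bases of Itga10 also belong to Gm42957, transcribed in the same direction, so the level of Itga10 is uncertain. Itga2, the collagen receptor chain of platelets and epithelia, was near the bottom of the range with 40.3 ± 7.54 (SD, n = 3) and 49.6 ± 11.3 (SD, n = 3) normalized counts, and its groups overlapped (95% interval of the log2 fold change -0.19 to 0.76).

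Within each library the relation of Itga11 to Itga10 turned over, with the level of Itga10 uncertain as given above. This pair and the other pairs below were chosen after their values were seen. Per kilobase of exon, Itga11 was 8.46, 8.86 and 8.26 times the level of Itga10 in the control libraries, and 0.438, 0.472 and 0.448 times in the dexamethasone libraries. The start regions of these 2 genes, and that of Itga1, are shown because the genes share a role and changed in opposite directions, and because, with Itga5, they had the 2 largest rises and falls among abundant subunits with a RefSeq window (RefSeq, GRCm38.p6, 250 bases before and 50 after the start, read 5′ to 3′ on the gene's strand). They cover chr3:96645334-96645633 (plus strand) for Itga10, chr9:62677605-62677904 (plus strand) for Itga11 and chr13:115101915-115102214 (minus strand) for Itga1.
Itga10: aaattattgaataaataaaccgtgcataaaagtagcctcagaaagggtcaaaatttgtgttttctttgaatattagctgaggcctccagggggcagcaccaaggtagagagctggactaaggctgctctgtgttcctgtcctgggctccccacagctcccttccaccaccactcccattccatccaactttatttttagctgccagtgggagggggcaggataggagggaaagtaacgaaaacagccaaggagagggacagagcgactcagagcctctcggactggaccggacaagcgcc
Itga11: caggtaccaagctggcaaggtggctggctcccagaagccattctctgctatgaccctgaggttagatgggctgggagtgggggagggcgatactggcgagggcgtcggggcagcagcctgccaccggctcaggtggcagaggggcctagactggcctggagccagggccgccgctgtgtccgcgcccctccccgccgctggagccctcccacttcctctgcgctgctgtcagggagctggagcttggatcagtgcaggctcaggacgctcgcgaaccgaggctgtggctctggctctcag
Itga1: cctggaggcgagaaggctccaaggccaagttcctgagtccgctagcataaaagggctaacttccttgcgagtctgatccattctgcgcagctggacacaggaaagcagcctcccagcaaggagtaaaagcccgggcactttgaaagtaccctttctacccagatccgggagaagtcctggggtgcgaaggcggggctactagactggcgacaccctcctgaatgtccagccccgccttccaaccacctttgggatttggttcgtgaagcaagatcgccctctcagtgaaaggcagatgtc
The G and C content of these windows was 51% for Itga10, 68% for Itga11 and 56.7% for Itga1, against a median of 52.7% over 32851 promoters. None of them held, on either strand, the half-site AGAACA of the glucocorticoid receptor, the GC box GGGCGG, the AP-1 site TGACTCA or the TATA box TATAAA. Those letters were found in 19%, 35.7%, 5.2% and 13.6% of all promoter windows. The full receptor palindrome, AGAACA followed after 3 bases of any kind by TGTTCT, so that it contains the half-site, was in 0.00913% of all windows and in none of the 23 subunit genes that had one. The half-site was in 6 of these 23, Itga2, Itgax, Itgb1, Itgb7, Lama2 and Lamb3.

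The laminin-binding α chains all rose. Itga6, a laminin receptor chain of epithelial, endothelial and stem cells that pairs with Itgb1 or Itgb4, gave the largest change of all 32 tested subunits. It had 1407, 1407 and 1321 normalized counts in the control libraries and 19260, 18207 and 18437 with dexamethasone. This is a 13.5-fold rise (log2 fold change 3.76, standard error 0.0387, limma adjusted p = 8.86e-29), which ran from 3.59 to 3.77 on the log2 scale over 17 alternatives. Itga3 was the most abundant of these chains in the control libraries and rose by less than 2-fold, from 6695, 7378 and 6677 to 12202, 10708 and 11435 normalized counts (log2 fold change 0.73, limma adjusted p = 2.44e-13). Per kilobase of exon, Itga6 stood at 0.133, 0.121 and 0.125 times Itga3 in the control libraries and at 0.999, 1.08 and 1.02 times in the dexamethasone libraries. With coding length in place of exon length, their shares of all integrin α chains with dexamethasone were 12.5% (Itga6) and 7.53% (Itga3). The like level of both chains thus depends on the length used. Itga7, the laminin receptor chain of muscle, was low and rose from 72.5, 60.7 and 63.3 to 171, 192 and 198 normalized counts (2.85-fold, limma adjusted p = 8.67e-10). The summed skeletal muscle markers ranged from 605 to 689 in the control and from 689.99 to 757 in the dexamethasone libraries. Nearly all of this was Des, at 585 and 660.0 on average, while Acta1 fell (log2 fold change -1.56), and the part of these markers in the rise of Itga7 was not tested.

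Markers of cells in which Itga6 is abundant were also counted. Of the 6 epithelial markers 5 were in the table, only Cdh1 and Krt14 had more than 3 reads in any library, and the summed level was 26.6 to 50.1 in the control and 12.8 to 22.9 in the dexamethasone libraries. Of the 8 endothelial markers, Emcn and Cldn5 were absent from the data. The others summed to 380 to 410.4 in the control and 464 to 506 in the dexamethasone libraries, most of it Kdr. Of the 4 tested 3 rose, namely Kdr, Pecam1 and Esam (log2 fold changes 0.25, 0.74 and 1.20). Of all genes tested, 72.5% passed the adjusted p-value in either direction. Pecam1 and Esam were low, at 15.7 and 14.3 normalized counts on average in the control and 26.3 and 33.0 in the dexamethasone libraries. The other marker tested, Tek, had a log2 fold change of -0.75 and did not pass the test (limma adjusted p = 0.146). Cdh5 had at most 2 reads and Tie1 at most 3. Itga6 averaged 18635 ± 554 (SD, n = 3) normalized counts with dexamethasone, and the part of epithelial and endothelial cells in its rise was not tested. Itgb4, the partner that builds hemidesmosomes with Itga6, had 184.5 ± 4.68 (SD, n = 3) and 167 ± 23.3 (SD, n = 3) normalized counts, with overlapping groups (log2 fold change -0.15, 95% interval -0.40 to 0.09).

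**Figure D2:**
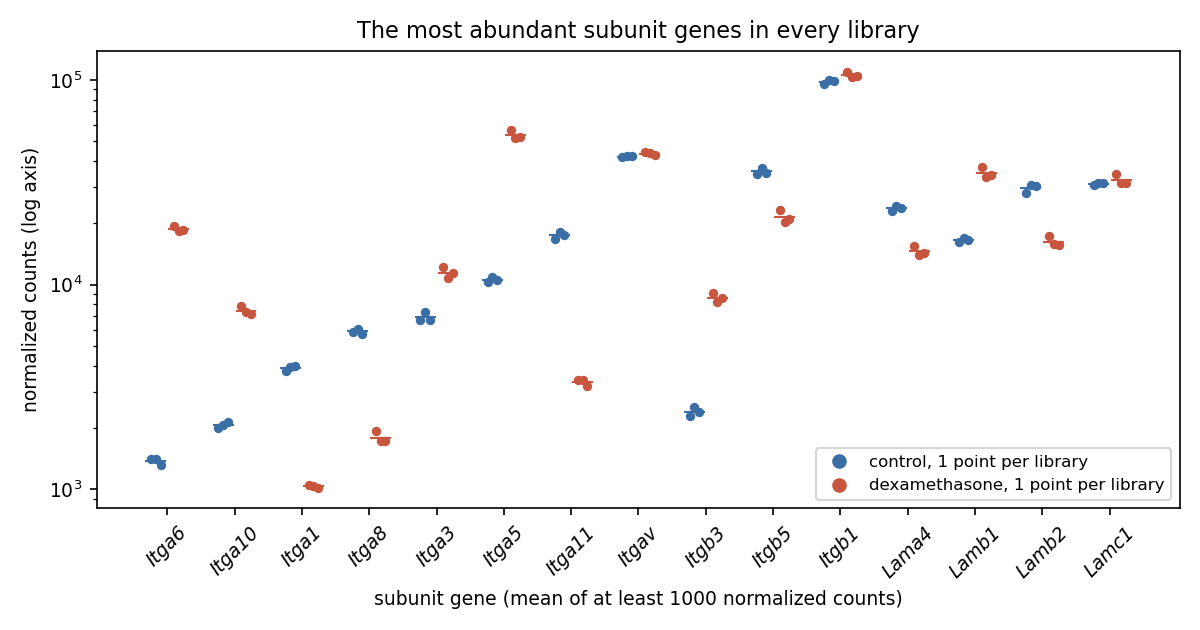
Normalized counts (log axis) of the 15 subunit genes with a mean of at least 1000, 1 point per library and a line at the group mean, control in blue and dexamethasone in red. Itga6, Itga5, Itga10, Itgb3 and Lamb1 lie clearly higher with dexamethasone and Itga1, Itga8 and Itga11 lower, while Itgav, Itgb1 and Lamc1 sit at nearly the same height in both groups.

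Among the RGD-binding α chains, Itga5 and Itga8 moved apart and Itgav stayed within a narrow range. Itga5, the fibronectin receptor chain, had 10339, 10847 and 10504 normalized counts in the control libraries and 56995, 51910 and 52468 with dexamethasone. Its 5.09-fold rise (log2 fold change 2.35, standard error 0.039, limma adjusted p = 4.71e-25) made it the most abundant α chain per kilobase in the dexamethasone libraries. Its start region is given as that of the abundant subunit with the largest rise for which a window was at hand, at chr15:103366742-103367041 (minus strand, RefSeq, GRCm38.p6), with 58.7% G and C and 2 GC boxes in capitals, read here as CCGCCC on the gene's strand.
Itga5: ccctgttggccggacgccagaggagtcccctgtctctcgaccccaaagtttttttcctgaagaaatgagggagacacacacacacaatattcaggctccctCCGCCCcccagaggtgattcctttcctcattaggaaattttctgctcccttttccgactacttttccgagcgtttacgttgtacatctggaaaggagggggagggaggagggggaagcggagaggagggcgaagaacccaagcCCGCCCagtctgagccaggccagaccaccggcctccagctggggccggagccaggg
Itga8, the receptor chain for nephronectin, fell from 5891, 6086 and 5747 to 1917, 1719 and 1731 normalized counts (log2 fold change -1.72, limma adjusted p = 3.35e-21). Itga8 is often expressed in smooth muscle, and of the 5 smooth muscle markers tested 3 fell and 1 rose. Of all genes tested, 72.5% passed the adjusted p-value in either direction. Only 2 of these markers fell by at least 2-fold, and the third that fell, Myh11, was low (44.2 and 24.8 normalized counts on average). The summed level of the smooth muscle markers was between 149315 and 157511 in the control and between 19351 and 20635 in the dexamethasone libraries. The largest part of that sum was Acta2, which went from 144920 to 12449 normalized counts on average, and the part of these markers in the change of Itga8 was not tested. Itgav, which pairs with several β chains and binds vitronectin and osteopontin, had 41737, 42295 and 42438 normalized counts in the control and 44155, 43951 and 42689 in the dexamethasone libraries. The groups did not overlap, but the log2 fold change of 0.05 (95% interval -0.03 to 0.12, limma adjusted p = 0.236) did not pass the test, and it was -0.07 with all libraries at the same total and -0.02 after quantile normalization. Per kilobase of exon, Itga5 was at 0.540, 0.559 and 0.539 times the level of Itgav in the control libraries and at 2.81, 2.57 and 2.68 times in the dexamethasone libraries. Itga2b, the platelet fibrinogen receptor chain, had 409 ± 28.96 (SD, n = 3) and 438 ± 27.7 (SD, n = 3) normalized counts with overlapping groups (log2 fold change 0.10, 95% interval -0.06 to 0.27, and -0.01 with all libraries at the same total). The summed platelet markers went from between 252 and 302 to between 90.7 and 109.0 over the same libraries. Nearly all of this was Gp1ba, the marker tested, at 261 and 81.0 on average, the others had at most 15 reads in a library, and their part in the level of Itga2b was not tested.

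Itga9, which binds tenascin-C and Vcam1, fell from 1143, 1245 and 1104 to 563, 429 and 487 normalized counts (log2 fold change -1.24, limma adjusted p = 3e-13). The other chain of its subfamily, Itga4, had at most 13 reads in a library and was not tested.

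The β chains were led by Itgb1, the common partner of most α chains and per kilobase of exon the most abundant of all 37 genes. It had 95135, 99982 and 98663 normalized counts in the control libraries and 109665, 103656 and 104790 with dexamethasone. The groups did not overlap, but the log2 fold change was only 0.11 (limma adjusted p = 0.0199), was 0.000595 when all libraries were set to the same total (adjusted p = 0.986), and had an adjusted p of 0.0888 without control replicate 1, 0.066 without control replicate 3 and 0.134 with the replicate number as a block. Itgb3 and Itgb5, the 2 β chains that pair with Itgav to bind vitronectin, moved in opposite directions. Itgb3 rose 3.6-fold, from 2286, 2513 and 2383 to 9100, 8184 and 8570 normalized counts (log2 fold change 1.85, limma adjusted p = 5.07e-22). Itgb5 fell from 34794, 37189 and 35014 to 23129, 20197 and 20881 (log2 fold change -0.74, limma adjusted p = 1.08e-13). Itgb5 still exceeded Itgb3 in every library, as the level of Itgb3 per kilobase was between 0.0396 and 0.041 of that of Itgb5 in the control and between 0.237 and 0.247 in the dexamethasone libraries. Itgb3 is also an osteoclast gene. Of the osteoclast markers, Acp5 had 0 reads in each control library, which allows up to 3, and 18.3 ± 10.9 (SD, n = 3) normalized counts with dexamethasone, and Ctsk went from 13146 ± 309 (SD, n = 3) to 8353 ± 222 (SD, n = 3). Ocstamp went from 2.25 to 14.0 on average, Oscar and Calcr had at most 14 and 4 reads, and the summed level, nearly all Ctsk, was 12872 to 13490 in the control and 8176 to 8603 in the dexamethasone libraries. The part of these markers in the rise of Itgb3 was not tested. Itgb8, which pairs with Itgav to activate latent TGF-β, fell from 179.9, 164 and 199 to 78.2, 90.5 and 87.2 normalized counts (log2 fold change -1.07, limma adjusted p = 1.21e-07), and its value of -0.98 after quantile normalization was short of the 2-fold limit. Itgb6, an epithelial chain, stayed under 44 normalized counts with overlapping groups (log2 fold change 0.48, 95% interval -0.22 to 1.18).

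The leukocyte chains were low, with 1 change that was large for its level. Itgb2, the β chain shared by the integrins of leukocytes, had 65.2, 53.8 and 44.8 normalized counts in the control libraries and 496, 482 and 533 in the dexamethasone libraries. It rose 9.22-fold (log2 fold change 3.20, limma adjusted p = 4.91e-17), the second largest rise among the 32 tested subunits. None of the α chains that pair with it came near that level. Itgal had 28.5, 36.2 and 27.2 normalized counts in the control and 48.6, 63.2 and 70.9 in the dexamethasone libraries (log2 fold change 0.96, limma adjusted p = 0.000496). It passed the 2-fold limit without control replicate 2 (1.09), without dexamethasone replicate 1 (1.11) and after quantile normalization (1.07). Itgam, Itgax and Itgad had at most 6, 7 and 9 reads in any library, too few for a test, and 68.7% of the exon bases of Itgam lie under another gene on the same strand. Itgb7, the lymphocyte homing chain, rose from 228, 232 and 211 to 577, 497 and 599.995 normalized counts (log2 fold change 1.31, limma adjusted p = 1.4e-12). Its partner Itgae rose from 48.7, 51.9 and 25.5 to 91.6, 92.7 and 80.2 (log2 fold change 1.11, limma adjusted p = 0.000102). The change of Itgae was 0.80 without control replicate 3 and 0.96 with 10 added before the logarithm, both under the 2-fold limit.

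General leukocyte markers went in both directions beside Itgb2. Of the 10 pan-hematopoietic markers, 6 were tested, 1 was differentially expressed upward and 2 downward (50% of those tested, against 22.3% of all genes tested). The summed level of the 10 markers, nearly all of it Arhgdib, was 6665 to 6942 in the control and 7649.8 to 8098 in the dexamethasone libraries. Arhgdib rose (log2 fold change 0.15), and Laptm5 and Coro1a fell (-1.49 and -1.77). Ptprc (CD45), which marks nearly all leukocytes, had at most 5 reads in any library and Vav1 at most 2. Cd53 was the marker differentially expressed upward, at 15.7 ± 3.99 (SD, n = 3) normalized counts in the control and 283 ± 24.8 (SD, n = 3) in the dexamethasone libraries (log2 fold change 4.11, limma adjusted p = 6.6e-16). The macrophage and neutrophil markers summed to 1913 to 1941 in the control and 1692 to 1957 in the dexamethasone libraries, within which Cd68 and S100a8 rose (log2 fold changes 1.78 and 0.87) and Lyz2 and Csf1r fell (-1.50 and -0.67). The 3 lymphocyte markers in the table summed to under 10 in every library. The part of leukocytes in the rise of Itgb2 was not tested. Within a library, the ratio of Itgb2 to Itgal per kilobase was 4.93, 3.20 and 3.54 in the control and 21.95, 16.4 and 16.2 in the dexamethasone libraries, so that Itgb2 rose more than its partner in each.

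**Figure D3:**
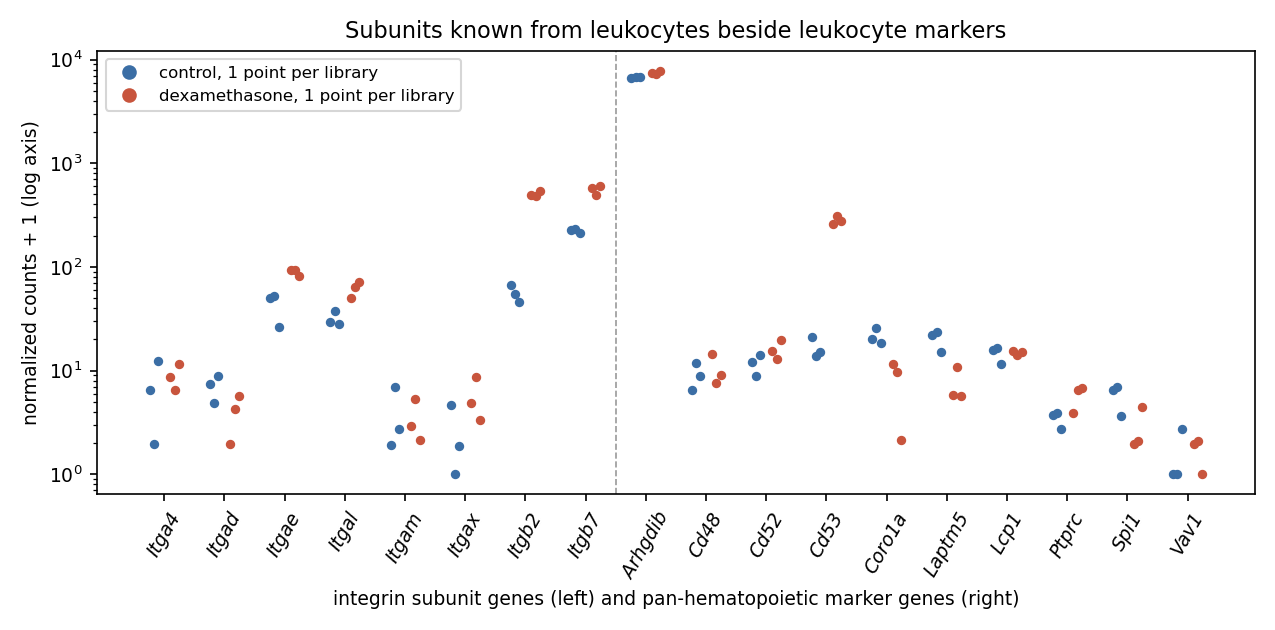
Normalized counts plus 1 (log axis) of the integrin subunit genes known from leukocytes (left of the dashed line) and of 10 pan-hematopoietic marker genes (right), 1 point per library, control in blue and dexamethasone in red. Itgb2 and Cd53 stand apart between the groups, while Ptprc, Vav1 and Itgam stay near the bottom of the axis in all 6 libraries.

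The laminin genes were dominated by 1 α, 2 β and 1 γ chain. Lama4, the α chain of laminins from mesenchymal and endothelial cells, made up 98.7% ± 0.0737 (SD, n = 3) of all laminin α chains per kilobase in the control and 99.1% ± 0.0409 (SD, n = 3) in the dexamethasone libraries. It fell from 22967, 24252 and 23655 to 15418, 13890 and 14248 normalized counts, less than 2-fold (log2 fold change -0.70, limma adjusted p = 3.37e-14). The γ chain Lamc1, found in most laminins, had 30775, 31478 and 31186 normalized counts in the control and 34694, 31228 and 31372 in the dexamethasone libraries. These groups overlapped, and the log2 fold change of 0.06 (95% interval -0.03 to 0.14, limma adjusted p = 0.212) was -0.06 with all libraries at the same total and -0.04 after quantile normalization.

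The β chains of laminin exchanged their order. Lamb1 rose from 16117, 16802 and 16584 to 37330, 33469 and 34356 normalized counts (log2 fold change 1.09, limma adjusted p = 5.28e-18). Lamb2, the β chain of synaptic and vascular basement membranes, fell from 27939, 30651 and 30315 to 17243, 15770 and 15541 (log2 fold change -0.87, limma adjusted p = 1.98e-15). Neither is far from the 2-fold limit, since Lamb1 was at 0.97 with all libraries at the same total and at 0.93 after quantile normalization, while Lamb2 was at -1.04 after quantile normalization. The ratio of the 2 chains within a library does not depend on the size factor. Per kilobase, Lamb1 was at 0.354, 0.336 and 0.3355 times Lamb2 in the control libraries and at 1.33, 1.30 and 1.356 times in the dexamethasone libraries.

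The less abundant laminin chains changed by larger factors from low levels. Lama1, the α chain of embryonic basement membranes, fell from 176, 218 and 194 to 35.3, 23.98 and 32.6 normalized counts, the largest decrease among the 32 tested subunits (log2 fold change -2.65, limma adjusted p = 1.16e-12). Lama3 and Lamb3, chains known from the basement membrane of skin, both rose. Lamb3 had 13.8, 11.7 and 7.03 in the control and 31.5, 49.1 and 51.2 in the dexamethasone libraries (log2 fold change 1.94, limma adjusted p = 7.23e-06). For Lama3 the reads were 2, 3 and 3 in the control and 22, 25 and 17 in the dexamethasone libraries. The ratio of its summed reads, corrected for library size, was 9.20, with a 95% exact counting interval of 4.40 to 22.2 that covers counting error only. Lama5 had 33.7 ± 4.63 (SD, n = 3) normalized counts in the control and 58.1 ± 9.16 (SD, n = 3) in the dexamethasone libraries (log2 fold change 0.76, limma adjusted p = 0.00323). Lama2, the α chain of muscle and nerve, went from 28.5, 36.2 and 18.5 to 15.3, 16.4 and 12.8 (log2 fold change -0.82, limma adjusted p = 0.0245). That p-value became 0.0723 without control replicate 1, 0.143 without control replicate 2 and 0.0644 without dexamethasone replicate 3, while without control replicate 3 the log2 fold change was -1.07. The summed Schwann cell markers were 671 to 713 in the control and 483 to 514 in the dexamethasone libraries, with markers in both directions, among them a decrease of S100b and a rise of Mbp, and their part in the change of Lama2 was not tested. Lamc3 had at most 8 reads in a library and was not tested, and its corrected ratio was 2.96 with a counting interval of 1.18 to 8.38.

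Because subunits of 1 family share their partners, the make-up of each family was also described as shares of its summed normalized counts per kilobase of exon, a quantity that the size factors do not alter. For 28 of the 37 shares the control and dexamethasone libraries did not overlap, each with an exact two-sided permutation p = 0.1, the smallest that 3 against 3 libraries allow (adjusted p = 0.132 over 37 shares), so no share could pass 0.05. The levels of 74.7% of all genes tested did not overlap either. Shares of a family add up to a fixed total, so a share can move without a change in the subunit's own level. Itga5 took 17.1% ± 0.0462 (SD, n = 3) of the integrin α chains in the control and 50.4% ± 0.554 (SD, n = 3) in the dexamethasone libraries. Itga11 went from 27.2% ± 0.390 (SD, n = 3) to 3.01% ± 0.125 (SD, n = 3), and Itgav from 31.4% ± 0.563 (SD, n = 3) to 18.8% ± 0.634 (SD, n = 3), although the log2 fold change of Itgav itself was 0.05. In the control libraries Itgav, Itga11 and Itga5 were thus the leading α chains, and in the dexamethasone libraries Itga5, Itgav, Itga6 and Itga3 were. Itga6 rose from 1.22% to 9.55%, and Itga3 was at 9.69% and 9.27% with overlapping groups. With coding length in place of exon length Itga5 went from 11.8% to 38.5% and Itgav from 47.8% to 31.7%, so that the levels depend on the length used while Itga5 led Itgav with dexamethasone under both.

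Of the integrin β chains, Itgb1 held 69.4% ± 0.505 (SD, n = 3) in the control and 76.7% ± 0.629 (SD, n = 3) in the dexamethasone libraries. Itgb5 went from 29.0% ± 0.479 (SD, n = 3) to 17.8% ± 0.586 (SD, n = 3) and Itgb3 from 1.17% to 4.31%. Of the laminin β chains, Lamb1 went from 25.5% ± 0.570 (SD, n = 3) to 57.0% ± 0.498 (SD, n = 3). The summed level per kilobase of all integrin α chains was 12494 ± 286 (SD, n = 3) in the control and 21626 ± 884 (SD, n = 3) in the dexamethasone libraries, 1.73 times as high, while the β chains summed to 34584 ± 949 (SD, n = 3) and 33869 ± 1294 (SD, n = 3) with overlapping groups. In the laminins the α chains summed to 1983 ± 55.4 (SD, n = 3) and 1214 ± 67.2 (SD, n = 3), the β chains to 6538 ± 277 (SD, n = 3) and 6202 ± 349 (SD, n = 3), and the γ chains to 3798 ± 45.1 (SD, n = 3) and 4013 ± 233 (SD, n = 3). The integrin α total was thus higher and the laminin α total lower with dexamethasone in every library, the laminin γ total was slightly higher in every one, and the integrin β and laminin β totals overlapped. Unlike the shares, these totals depend on the size factors. Lamc1, 97.7% of the γ total with dexamethasone, had a log2 fold change of -0.06 with all libraries at the same total.

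**Figure D4:**
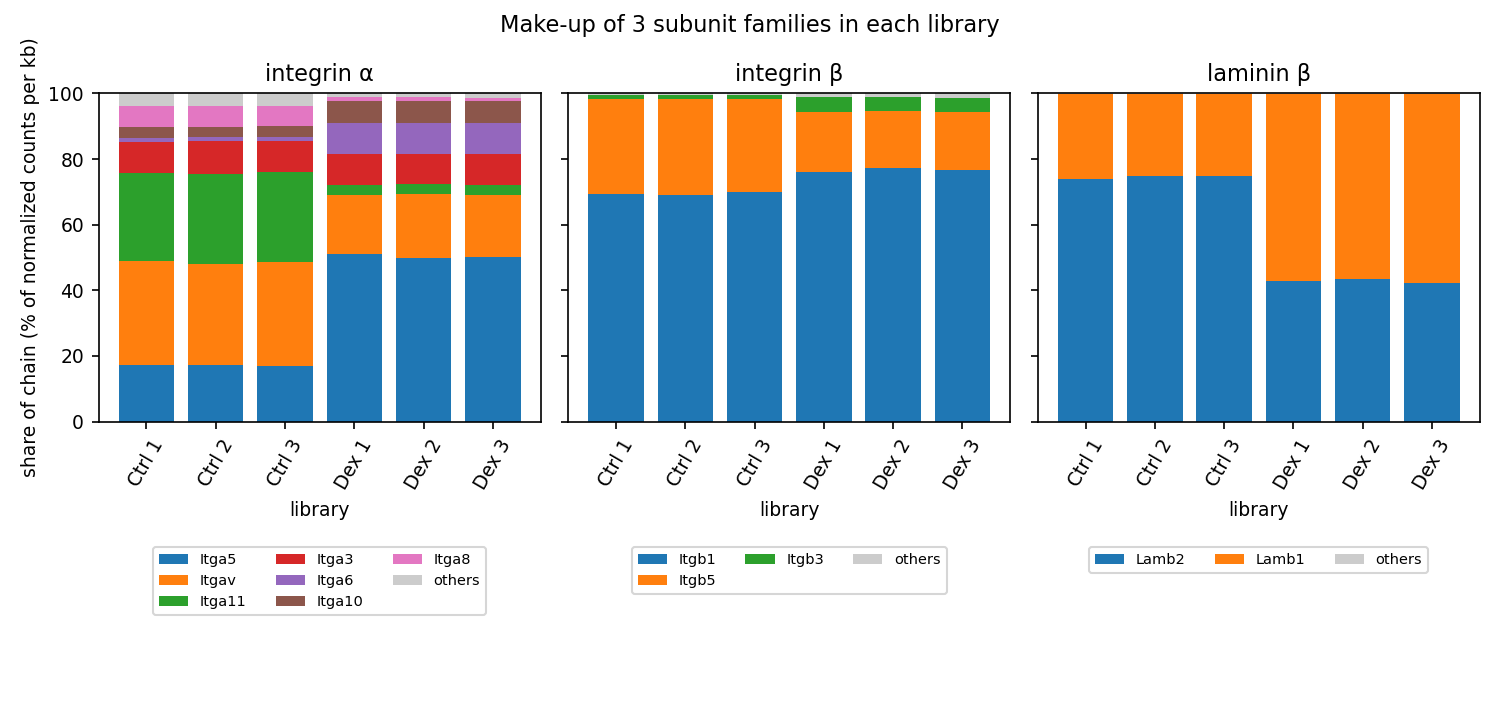
Share of each subunit in the summed normalized counts per kilobase of exon of its family, for integrin α, integrin β and laminin β, with 1 bar for each of the 6 libraries. Itga5 grows from 17.1% to 50.4% of the α chains, Itga11 shrinks from 27.2% to 3.01%, Itgb5 narrows, and Lamb1 overtakes Lamb2, with the 3 bars of a group nearly alike.

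The genes that act with these subunits were looked at as 3 lists chosen by their known role. Of 33 genes of the integrin adhesion machinery, 30 were tested, and 5 were differentially expressed upward and 1 downward (20% of those tested, against 22.3% of all genes tested), with a median log2 fold change of 0.21. Parvb, which links integrins to actin together with Ilk, had 867 ± 45.6 (SD, n = 3) normalized counts in the control and 6712 ± 269 (SD, n = 3) in the dexamethasone libraries (log2 fold change 2.95), and Tns1, a tensin that binds β tails, had a log2 fold change of 1.77. Ilk itself had at most 12 reads in a library and was not tested. Overlap with other genes was looked at only for the subunits, so the level of Ilk is uncertain. The decrease was that of Tgfb1i1 (Hic-5), with a log2 fold change of -1.12. With all libraries at the same total, 3 genes of the list were differentially expressed, and after quantile normalization or without control replicate 1, 4 were. The other 3 rises were those of Pxn (paxillin), Parvg and Actn4, just past 2-fold with log2 fold changes of 1.11, 1.03 and 1.01. Those of the talin gene Tln1, the vinculin gene Vcl, the focal adhesion kinase gene Ptk2 and the kindlin gene Fermt2 were 0.55, -0.67, 0.43 and -0.58. These 7 genes were named after their values were seen.

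Of 24 integrin ligands, 21 were tested, 4 were differentially expressed upward and 10 downward (66.7% of those tested, against the same 22.3%), with a median log2 fold change of -0.80. Spp1 (osteopontin), a ligand of Itgav with Itgb3, went up from 33595 ± 988 (SD, n = 3) in the control to 1279700 ± 29571 (SD, n = 3) in the dexamethasone libraries (log2 fold change 5.25, limma adjusted p = 1.43e-29), and Dmp1, an RGD protein of osteocytes, from 38.5 ± 2.66 (SD, n = 3) to 5639 ± 326 (SD, n = 3) (log2 fold change 7.16). The largest decreases were those of Thbs1 (thrombospondin 1) and Npnt (nephronectin), with log2 fold changes of -2.25 and -2.18. Npnt, the ligand of Itga8, thus fell along with its receptor chain, and Fn1, the ligand of Itga5, had a log2 fold change of -0.15 and did not pass the test (limma adjusted p = 0.0744). The fibrillar collagen genes Col3a1, Col1a1 and Col1a2, whose products Itga11 binds, had log2 fold changes of -2.16, -1.88 and -1.05. Fn1, Col3a1, Col1a1 and Col1a2 were named after their values were seen.

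Of 21 basement membrane partners and other laminin receptors, 18 were tested, 4 were differentially expressed upward and 2 downward (33.3% of those tested, against 22.3%), with a median log2 fold change of 0.04. The nidogens, which bridge laminin to type IV collagen, went apart as Lamb1 and Lamb2 did. Nid1 had 425 ± 26.7 (SD, n = 3) normalized counts in the control and 1276 ± 68.7 (SD, n = 3) in the dexamethasone libraries (log2 fold change 1.58), and Nid2 fell from 35241 ± 1085 (SD, n = 3) to 9767 ± 575 (SD, n = 3) (log2 fold change -1.85). Col4a1, a main chain of type IV collagen, had a log2 fold change of 1.48, and Sntb1, a syntrophin of the dystroglycan complex, one of -1.80.

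**Figure D5:**
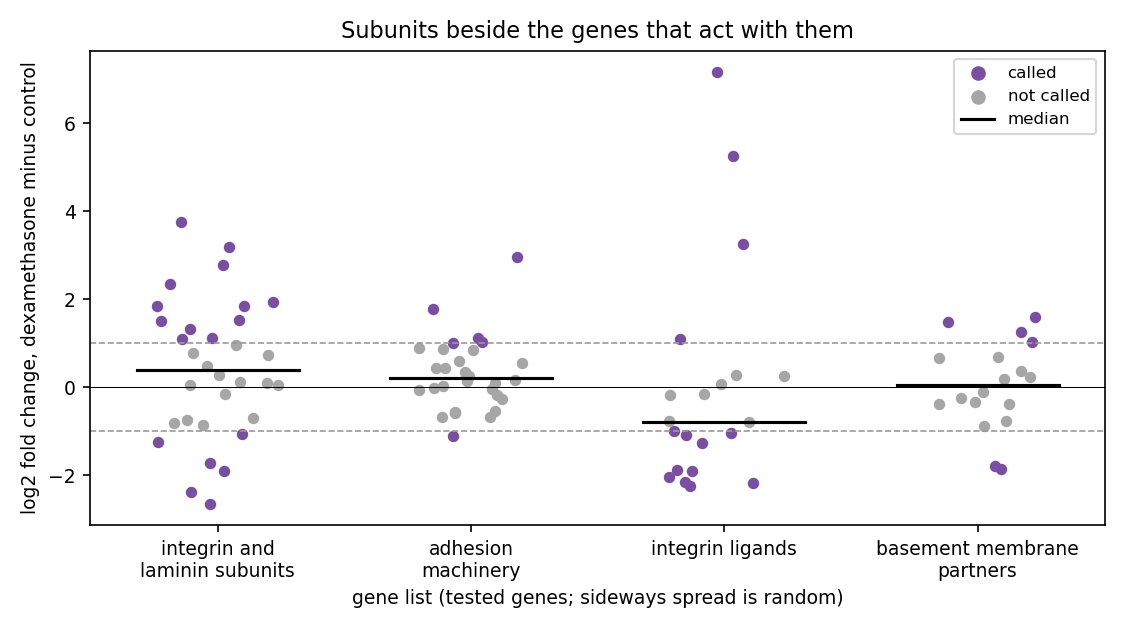
Log2 fold change (dexamethasone minus control) of the tested subunit genes and of the tested genes of 3 lists of partners, 1 point per gene, purple where differentially expressed, with a line at the median. The medians are 0.38, 0.21, -0.80 and 0.04 from left to right, and the ligands spread most widely, from -2.25 to 7.16.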

How the data were processed

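RNA was sequenced in 3 control and 3 dexamethasone libraries. Per the study's methods and the submitters' processing notes, the authors aligned and counted the reads per gene with STAR 2.7.10a (build GRCm39) and scaled those counts in DESeq2 1.36.0. What was deposited is a signal for each gene, namely its reads after division by the size factor of the library (normalized counts in the text). The annotation release and the strand setting are not given in the sources used here. Division by the value of 1 read gave whole reads (within 0.001) for 100% of the values, at a depth of 72596611 to 89910728 reads. Symbols, exon lengths and overlaps came from GENCODE M21 (GRCm38), in which 28087 of the 29616 genes had a symbol, and 0 columns were left out. Exon length is the union of all annotated exons.

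Normalized counts plus 1 were compared on the log2 scale with limma 3.58.1 (variance trend, R 4.3.3) for the 17442 genes that averaged 10 or more, with Benjamini-Hochberg adjustment. The cut-offs were an adjusted p of 0.05 and a log2 fold change of 1. Replicate libraries differed by more than sampling noise (chi-square per degree of freedom 3.52 to 29.6). The replicate numbers did not pair the libraries. The counts cover all 37 subunits, of which 1 is not reported here on its own, and all others were named. Genes of other lists were named where they had the 2 largest rises or falls of those differentially expressed and averaging 100 or more, or as said in the text. Cell type markers outside that rule were also named, among them markers with few reads or without differential expression. The alternatives were other pseudocounts, filters, scalings and fold limits, no variance trend, the recovered reads tested with edgeR 4.0.16 and with DESeq2 1.42.0, a replicate block, each library left out in turn and other lengths for shares. The fits were tested on simulated counts. The subunits, lists and tests were chosen with earlier results of these data known.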

Additional observations from a re-analysis of the deposited data

How the results depend on the processing

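The number of differentially expressed subunits, 18 of 37, was 15 to 19 over the alternatives in fits, filters, scalings and left-out libraries (17 to 19 in the fits without 1 library) and 25 at a fold change of at least 1.5. The number past the adjusted p-value alone, 26, was 20 to 26, and 24 to 26 without 1 library. Both lowest counts, 15 and 20, were for means of 100 or more, where only 24 of the 32 subunits were tested. Over 533 refitted values of the 32 tested subunits, 518 kept their direction and whether they were differentially expressed. The adjusted p-value alone passed 0.05 in the other direction in 4 values of Itgb1, 3 of Lama2 and 1 of Itgav. Sign changes were limited to Itga2b at the same total (-0.0119), Itgav at the same total (-0.0657) and after quantile normalization (-0.0159), and Lamc1 under the same 2 scalings (-0.0574 and -0.0406). At the same total the median of all genes shifted to -0.11, to which changes on that scale are relative. Calls were lost in 5 values, of Itgae, Itgb8 and Lamb1, and gained in 5, of Itgal, Lamb2 and Lama2. The cause was not tested.

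The count over all genes, 3894 (52.3% of them higher), was 2170 (62.2% higher) for means of 100 or more and 6615 at a fold change of at least 1.5, both by construction, and 45.1% of the calls were higher at the same total. The adhesion machinery had 6 differentially expressed genes and 3 at the same total. With the replicate block 18 subunits were differentially expressed and 25 passed the adjusted p-value, as Itgb1 did not, and 3897 genes were called in all, but the correlations of same-numbered deviations (-0.0999, -0.105 and -0.0199) do not pair the libraries. The 28 shares whose groups did not overlap were 28 under both other length settings and 28 to 30 without 1 library. Leaving out 1 library gave 3888 to 3922 genes in all. Genes with few reads, Lama3, Lamb3 and Lama2 among those tested, are limited by depth.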
